A study of Mus musculus with 30 samples.

Results

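The genes described are 7 members of the enzyme systems with which colon epithelium makes reactive oxygen and nitrogen species: Nox1, Noxa1, Noxo1, Cyba, Duox2, Duoxa2 and Nos2. They were taken by name from a total of 13456 genes listed in at least 1 of 7 deposited tables of mouse mRNA sequencing. All 7 were listed in the table of colon epithelium and in the 3 tables of colonoids. In the 3 tables of colonocytes only Noxo1 and Cyba were listed, and Nox1, Noxa1, Duox2, Duoxa2 and Nos2 were not.

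The series holds 30 samples in 10 groups of 3, from 3 systems. Colon epithelium (C57BL/6J) came from Smad4+ control mice and from Smad4ΔLrig1 mice, called the Smad4 knockout here. No source used here states the age of the mice or how and when Smad4 was deleted. Cultured colonocytes carried the label IMCfl/fl Smad4+ and stood in 4 groups: no treatment, TNF, TGFB1 together with BMP2, and the 3 ligands combined, with no dose stated. Colonoids are organoids of colon epithelium, here of the lines L42, L43 and L46. Every line has a vehicle library, a TNF library (100 ng/mL), a library with TGFB1 at 3 ng/mL and BMP2 at 10 ng/mL, and a library with the 3 ligands combined. The colonoids' strain and genotype and the length of treatment are likewise not stated. In the labels the libraries of L46 carry another number series (L48) than those of L42 and L43 (L45), so line and number series cannot be told apart for L46.

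NADPH oxidases are membrane enzymes that pass electrons from NADPH to oxygen and so form superoxide or hydrogen peroxide. Nox1, the catalytic subunit of the main superoxide-forming oxidase of colon epithelium, needs the membrane partner Cyba (p22phox), the organizer Noxo1, the activator Noxa1 and a Rac GTPase. Duox2 forms hydrogen peroxide at the apical surface and needs the maturation factor Duoxa2 to leave the endoplasmic reticulum. Nos2, the inducible nitric oxide synthase, makes nitric oxide from arginine and is known as a target of inflammatory signals. Smad4 is the transducer shared by the TGFB and BMP pathways, and TNF signals through NF-kB.

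All 7 are annotated as protein-coding in GENCODE vM21 on GRCm38, the assembly also named mm10, which is the build the submitters' processing notes give. Nox1 lies at chrX:134086421-134221956 on the minus strand, Noxa1 at chr2:25085667-25095149 on the minus strand and Noxo1 at chr17:24696234-24700529 on the plus strand. Cyba lies at chr8:122424776-122432930 on the minus strand and Nos2 at chr11:78920787-78960254 on the plus strand. The Nox1 span reaches far upstream through 2 of its 5 GENCODE transcripts, and another of them starts at the RefSeq start used below, chrX:134111854. Duox2 (chr2:122279247-122298449, minus strand) and Duoxa2 (chr2:122298900-122302885, plus strand) stand head to head with 450 bases between their starts. No source used here states whether reads were counted by strand, so reads from exons shared with a gene on the other strand cannot be told apart. Such overlaps cover 2122 bases of the 3.013 kb of Noxo1 exons (with Tbl3), 682 bases of Duoxa2 (with Duoxa1), 399 bases of Nox1 (with Cstf2) and 50 bases of Noxa1 (with Entpd8). Duoxa1 was listed in none of the tables.

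The bases upstream of 3 starts are shown because Nox1 and Noxa1 fell together in the colonoids and Duoxa2 shares a short intergenic stretch with its partner. They are from RefSeq on GRCm38.p6, whose promoter table matched 6 of the 7 genes and held no entry for Nos2. Each is written 5′ to 3′ on the gene's own strand and ends at the base before the RefSeq start, and capitals mark motif matches on either strand. The windows are chrX:134111855-134112104 (minus strand), chr2:25095206-25095455 (minus strand) and, for Duoxa2, the part beyond the RefSeq end of Duox2, chr2:122298741-122298899 (plus strand).
Nox1: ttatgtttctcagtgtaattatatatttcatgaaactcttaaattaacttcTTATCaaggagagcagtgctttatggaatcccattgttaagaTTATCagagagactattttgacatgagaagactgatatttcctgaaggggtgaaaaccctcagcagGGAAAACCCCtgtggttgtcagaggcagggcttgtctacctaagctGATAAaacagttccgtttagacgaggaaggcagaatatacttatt
Noxa1: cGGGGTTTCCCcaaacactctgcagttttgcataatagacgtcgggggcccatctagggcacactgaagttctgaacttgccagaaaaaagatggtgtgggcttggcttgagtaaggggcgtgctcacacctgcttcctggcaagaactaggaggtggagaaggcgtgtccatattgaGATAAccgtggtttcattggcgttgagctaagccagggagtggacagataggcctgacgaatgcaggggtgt
Duoxa2: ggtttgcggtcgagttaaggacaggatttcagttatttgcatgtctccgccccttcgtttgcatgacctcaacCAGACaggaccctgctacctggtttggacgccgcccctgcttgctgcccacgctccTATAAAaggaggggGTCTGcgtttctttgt

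The capitals in the Nox1 window are 3 matches to GATAA, a core bound by GATA factors, and 1 match to the NF-kB motif at 91 to 82 bases before the start. The Noxa1 window holds 1 NF-kB match, read on both strands at the same place near the far end, and 1 GATAA match. The Duoxa2 stretch holds 2 matches to CAGAC, the core of the SMAD binding element, and TATAAA at 30 to 25 bases before the start. Over the 250 bases before the start of 32851 RefSeq promoters, 22.6% held GATAA, 3.9% the NF-kB motif, 42.2% CAGAC and 12.4% TATAAA. The Duoxa2 stretch has 159 bases, so these shares are not a like reference for its matches. The sequence GGCGCC, bound by BMP-activated SMADs (9.59% of promoters), and TTCNNNGAA, bound by STAT factors (7.02%), had no match in the 3 stretches printed. Of the windows not printed, that of Noxo1 held GGCGCC at 177 to 172 bases before the start, that of Duox2 held CAGAC and that of Cyba GATAA. Annotated exons cover much of 2 of these windows. Of the 250 bases of the Duox2 window 222 are Duox2 exon, its CAGAC matches among them, and of the Noxo1 window 173 are exon of Gfer.

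Values are CPM as deposited (reads scaled for depth by the authors within each table), given as mean ± SD of 3 libraries. Over the listed genes, colonoid libraries were deepest (42.2 to 61.7 M reads), and those of colonocytes (21.6 to 42.9 M) and of the tissue (23.2 to 28.6 M) were shallower. Log2 changes are on the log2(CPM + 1) scale, which understates changes of low genes, with a standard error (SE) and an adjusted p from limma with Benjamini-Hochberg adjustment over all genes of the table. A change is called where that adjusted p is under 0.05. Smad4 was 132, 148 and 152 CPM in the control libraries of colon epithelium and 47.8, 59.2 and 46.1 CPM in the knockout libraries, so the labels and the targeted gene did not conflict (adjusted p = 7.01e-05 by limma).

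Per kilobase of exon, the Nox1 complex had the highest mean levels of the 7 genes in control colon epithelium, with 92.1 CPM per kb for Cyba, 68.3 for Noxa1, 48.5 for Nox1 and 43.6 for Noxo1. Nox1 and Noxo1 did not differ beyond their SDs of 8.00 and 5.57. Duoxa2 (35.7 ± 3.01 CPM per kb), Duox2 (18.3) and Nos2 (8.97) followed, and the ranges of Noxo1 and Duoxa2 overlapped. In vehicle-treated colonoids, read in the table with TNF, Cyba stood at 111 ± 16.3 CPM per kb, Noxa1 at 71.9 ± 5.20, Nox1 at 71.5 ± 30.8 and Noxo1 at 57.8 ± 1.59. The lines did not share 1 order: Cyba was highest in L42 and L46, and in L43 Nox1 (106.8 CPM per kb) was above Cyba (96.5). Duoxa2 (6.68 ± 0.791) and Duox2 (6.44 ± 1.54), which did not differ beyond their SDs, and Nos2 (2.47) lay below them. The lengths take in all annotated exon bases, also those of Noxo1 shared with Tbl3 and of Duoxa2 shared with Duoxa1. If reads there were left uncounted, Noxo1 and Duoxa2 would stand too low, so their places in both orders are not settled.

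Loss of Smad4 in the colon epithelium came with higher Nox1, Duox2, Duoxa2 and Nos2 and lower Cyba, while Noxa1 and Noxo1 did not pass the test. In total 5 of the 7 genes were called, 4 higher and 1 lower, against 39.7% of all genes tested in this comparison. The median log2 change was 0.84 over the 7 genes and 0.00 over all genes. The comparison asks which genes differ in level between knockout and control epithelium, whether directly through Smad4 or not.

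**Figure D1:**
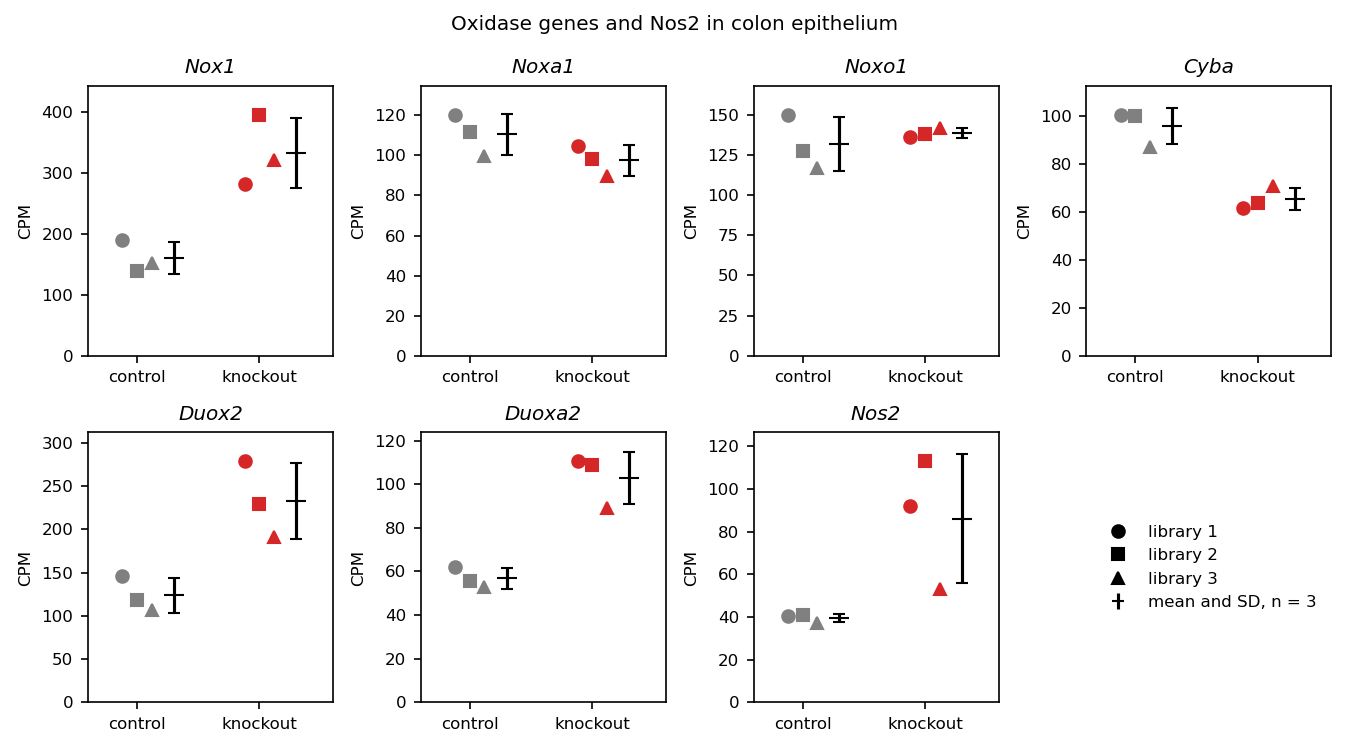
CPM of each gene in the 3 control (grey) and 3 Smad4 knockout (red) libraries of colon epithelium, with mean and SD to the right of the points; every axis starts at 0. Nox1, Duox2, Duoxa2 and Nos2 are higher in every knockout library than in every control library, Cyba is lower in every one, and the groups overlap for Noxa1 and Noxo1.

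Nox1, the catalytic subunit, was 190, 139 and 152 CPM in the control libraries and 283, 396 and 322 CPM in the knockout libraries. The lowest knockout library lay well above the highest control. The log2 change was 1.05 (SE 0.15, adjusted p = 0.000742 by limma), a 2.07-fold difference.

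Its partners did not follow. Noxa1 was 120, 112 and 99.6 CPM in controls and 105, 98.0 and 89.7 CPM in the knockout, 2 groups that overlapped (log2 change -0.18, SE 0.11, adjusted p = 0.211 by limma). Noxo1 was 150, 128 and 117 CPM against 136, 138 and 142 CPM, also overlapping (log2 change 0.08, SE 0.11, adjusted p = 0.57 by limma). Tbl3, which shares most of the Noxo1 exon bases on the other strand, fell from 27.5 ± 1.10 to 19.6 ± 2.39 CPM. Cyba, which stabilises the catalytic subunit in the membrane, was 100, 99.8 and 86.9 CPM in controls. In the knockout it was 61.7, 63.8 and 70.7 CPM, each below the lowest control, with a log2 change of -0.54 (SE 0.10, adjusted p = 0.00327 by limma).

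Duox2, the peroxide-forming oxidase, was 146, 118 and 107 CPM in controls and 279, 230 and 191 CPM in the knockout. The groups did not overlap, and the rise was 0.90 (SE 0.15, adjusted p = 0.00176 by limma). Duoxa2, its maturation factor, went from 62.2, 55.4 and 52.9 CPM to 110, 109 and 89.0 CPM, without overlap (log2 change 0.84, SE 0.12, adjusted p = 0.00069 by limma). The pair rose in step, with 2.03 to 2.35 Duox2 reads per Duoxa2 read in control libraries and 2.12 to 2.52 in knockout libraries.

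Nos2 was 40.6, 40.7 and 37.4 CPM in controls and 92.0, 113 and 53.2 CPM in the knockout. Every knockout library was above every control, but knockout library 3 lay nearer to the controls than to the other two knockout libraries. The rise was 1.04 (SE 0.22, adjusted p = 0.00536 by limma).

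Related genes were called in both directions in the knockout, as were genes in general (39.7% of all genes, 2300 higher and 2311 lower), so the counts of these lists are a description. Of 10 other NADPH oxidase subunits 4 were tested and 1 rose, Rac1, the GTPase that switches on Nox1 (603 ± 25.1 to 771 ± 35.9 CPM). Of 7 genes of arginine and nitric oxide metabolism tested, 0 rose and 3 fell. Among them were Qdpr, which regenerates tetrahydrobiopterin, the cofactor of Nos2 (118 ± 3.74 to 54.3 ± 13.2 CPM), and Spr, an enzyme of its synthesis (77.1 ± 5.45 to 48.4 ± 5.26). Of 14 genes that remove peroxide and superoxide 1 rose, the epithelial glutathione peroxidase Gpx2 (516 ± 109 to 1054 ± 127 CPM), and 6 fell, such as the peroxiredoxin Prdx2 (261 ± 23.4 to 127 ± 14.1). Of 8 Nrf2 targets and glutathione genes 5 rose and 1 fell. Slc7a11, the cystine importer, went from 2.20 ± 1.145 to 12.7 ± 2.30 CPM, and Gss, glutathione synthetase, from 227 ± 7.16 to 158 ± 23.1.

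Of 6 genes of NADPH supply 3 rose, including malic enzyme Me1 (20.1 ± 2.22 to 43.6 ± 4.67 CPM), and 1 fell, Idh2 (173 ± 16.5 to 104 ± 2.63). Of 12 known inducers of oxidase and Nos2 genes 3 rose and 1 fell. The transcription factor Stat3 went from 138 ± 6.11 to 200 ± 32.8 CPM, and the NF-kB subunit Relb from 36.6 ± 2.63 to 21.0 ± 1.81. Median log2 changes of these 6 lists lay between -0.29 (arginine and nitric oxide) and 0.39 (Nrf2 and glutathione), beside 0.00 over all genes.

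Cyba and Nos2 are also genes of phagocytes, so markers of other cells were read in the same libraries. Cybb, the phagocyte's own catalytic subunit, and Adgre1, Csf1r and Lyz2 were not listed for colon epithelium. The 6 of 16 phagocyte markers that were listed summed to 119 to 131 CPM in controls and 130 to 157 CPM in the knockout, and 0 of 6 passed the test. Of 7 lymphocyte and plasma cell markers listed 1 rose, the plasma cell gene Igj (10.5 ± 4.85 to 24.5 ± 2.67 CPM), and 3 fell, with sums of 63.7 to 115 CPM and 89.1 to 104 CPM. The median log2 change of these 7 was -0.08. The 12 epithelial markers, all listed, summed to 16660 to 17740 CPM in controls and 12910 to 15370 CPM in the knockout, where 1 rose and 4 fell. Of 3 stromal markers listed 1 fell, with sums of 25.8 to 28.1 and 18.1 to 21.6 CPM. The part of these shifts in the changes above was not tested, and in bulk tissue fewer cells of a type and less RNA per cell cannot be told apart.

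TNF in the colonoids came with higher Nos2, and, once the line was taken into account, with higher Nox1, Noxo1, Cyba, Duox2 and Duoxa2 as well. Without the line, limma called 1 of the 7 genes (Nos2, higher) against 0.137% of all genes. The same 3 lines were sampled in every condition, and with the line as replicate block it called 6 of the 7, all higher, against 6.14% of all genes. The median log2 change was 0.78 over the 7 genes and 0.00 over all genes. The comparison asks how the epithelium alone responds to an inflammatory cytokine.

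**Figure D2:**
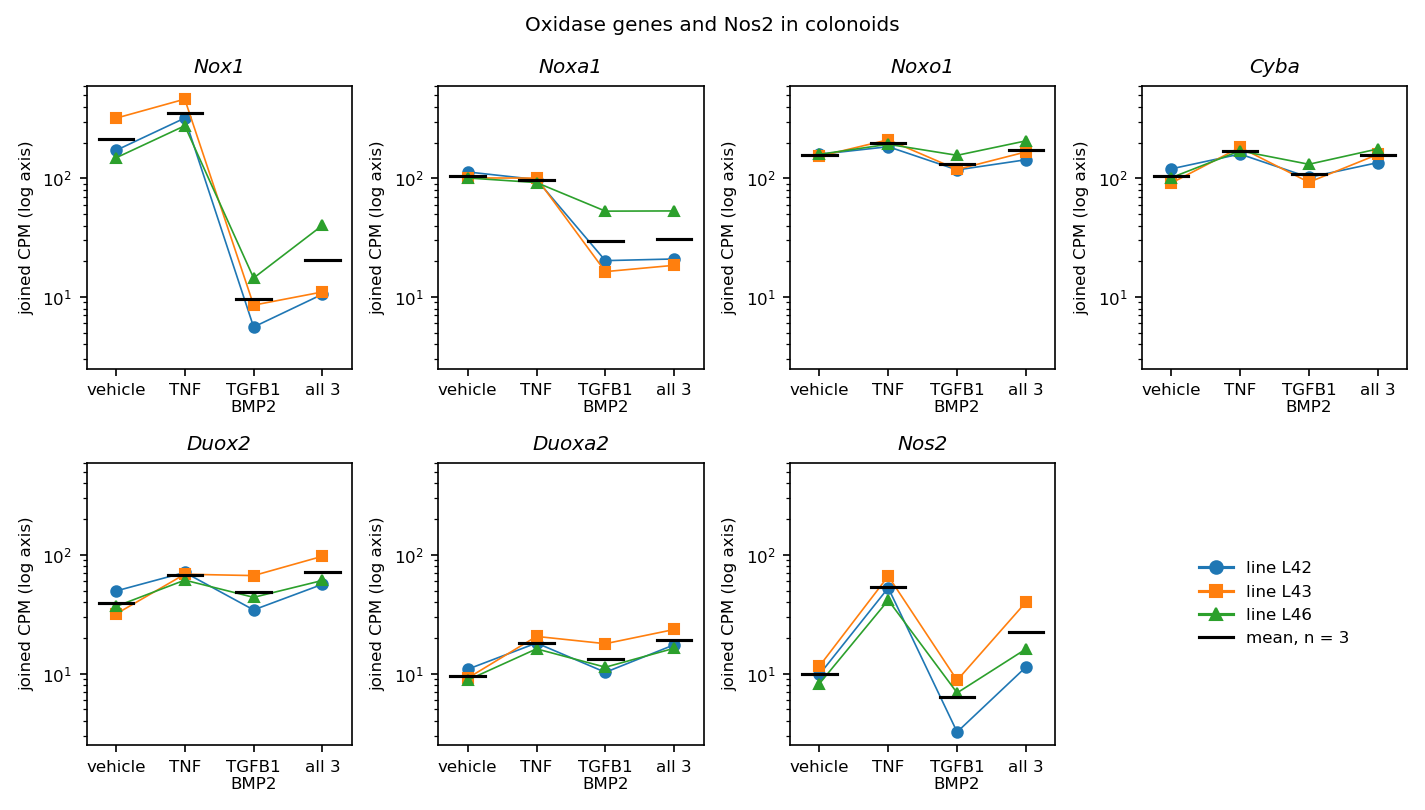
Level of each gene in the 12 colonoid libraries, in CPM put on 1 scale across the 3 tables (log axis), with lines joining the libraries of a colonoid line and black bars for the mean of 3. Nox1 and Noxa1 drop in both groups given TGFB1 with BMP2, Nos2 peaks in the 3 TNF libraries, and Noxo1, Cyba, Duox2 and Duoxa2 stay within a narrower range.

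Nos2 was 10.9, 12.7 and 9.12 CPM with vehicle in L42, L43 and L46 and 58.4, 73.4 and 45.9 CPM with TNF. The groups were far apart, and each line rose by a similar step, to between 504% and 578% of its own vehicle level. The log2 change was 2.32 (SE 0.19, adjusted p = 0.0109 by limma, and 8.32e-07 with the line as block). With 1 library left out and no block the call was lost for the vehicle library of L42, L43 or L46 and for the TNF library of L42 (adjusted p between 0.0557 and 0.0741 by limma). It was also lost without the block when line L46 was left out of both groups (adjusted p = 0.0913 by limma) or all 12 libraries were fitted together (0.111).

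Nox1 was 191, 353 and 165 CPM with vehicle and 357, 515 and 307 CPM with TNF. The groups overlapped because L43 was high in both, yet every line rose, to 187%, 146% and 186% of its vehicle level. The log2 change was 0.78 (SE 0.31, adjusted p = 1.00 by limma), and with the line as block its SE was 0.07 (adjusted p = 0.000332 by limma).

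Among the partners of Nox1, Noxa1 was 126, 111 and 112 CPM with vehicle and 108, 111 and 102 CPM with TNF and was not called with or without the block (log2 change -0.11, adjusted p = 0.361 by limma with the block). Noxo1 went from 177, 169 and 177 CPM to 205, 234 and 214 CPM, without overlap (log2 change 0.32, adjusted p = 0.356 by limma, and 0.0127 with the block). Tbl3 stood at 43.4 ± 3.19 and 34.3 ± 2.39 CPM in the same libraries. Cyba went from 134, 100 and 112 CPM to 178, 202 and 189 CPM, also without overlap (log2 change 0.72, adjusted p = 0.121 by limma, and 0.00211 with the block).

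Duox2 was 55.1, 34.9 and 40.8 CPM with vehicle and 78.8, 76.1 and 67.8 CPM with TNF, so the lines that differed at rest were close together after TNF. The log2 change was 0.78 (SE 0.16, adjusted p = 0.325 by limma, and 0.00176 with the block). Duoxa2 rose beside it, from 12.1, 10.1 and 9.78 CPM to 20.04, 22.8 and 17.9 CPM (log2 change of 0.87 with SE 0.13 and, by limma, adjusted p = 0.0978, and 0.000691 with the block). The authors' deposited table gives a false discovery rate of 4.43e-29 for Nos2, 0.000118 for Cyba, 0.00157 for Duox2 and 0.00249 for Duoxa2. For Nox1 and Noxo1 the authors' deposited table gives 0.309 and 0.534.

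The related lists held 0 calls with TNF in colonoids by limma without the block, over 3 other oxidase subunits, 7 genes of arginine and nitric oxide metabolism, 14 of peroxide and superoxide removal, 8 of Nrf2 and glutathione, 6 of NADPH supply and 12 inducers. That fit called 0.137% of all genes, so 0 calls in lists of this size do not set them apart from genes in general. Over all genes 514 had an unadjusted p under 0.05. The lists were not counted with the line as block, so they cannot be set beside the members called there. Ncf4, a cytosolic oxidase subunit of phagocytes that is named after its values were seen, stood at 2.94 ± 2.501 CPM with vehicle and 17.4 ± 15.7 CPM with TNF, a spread between lines close to its mean. All 12 epithelial markers were listed, and 3 of 16 phagocyte markers, 2 of 12 stromal and 0 of 12 lymphocyte and plasma cell markers were. Cybb, Ptprc, Csf1r and Lyz2 were not listed for colonoids. The phagocyte markers summed to 60.6 to 66.0 CPM with vehicle and 69.6 to 81.5 CPM with TNF, and their part in the rise of Cyba and Nos2 was not tested.

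TGFB1 with BMP2 took Nox1 in the colonoids to between 2.61% and 9.63% of its vehicle level and lowered Noxa1, while Noxo1, Cyba, Duox2, Duoxa2 and Nos2 did not pass the test. This was 2 of 7 genes, both lower, against 56.7% of all genes called, and the same 2 with the line as block, against 62.1%. The median log2 change over the 7 genes was -0.29, beside -0.02 over all genes. Its vehicle libraries are also those of the comparison with TNF. The comparison asks what TGFB1 and BMP2 together do to epithelium at rest, and whether their effect runs through Smad4 was not tested.

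**Figure D3:**
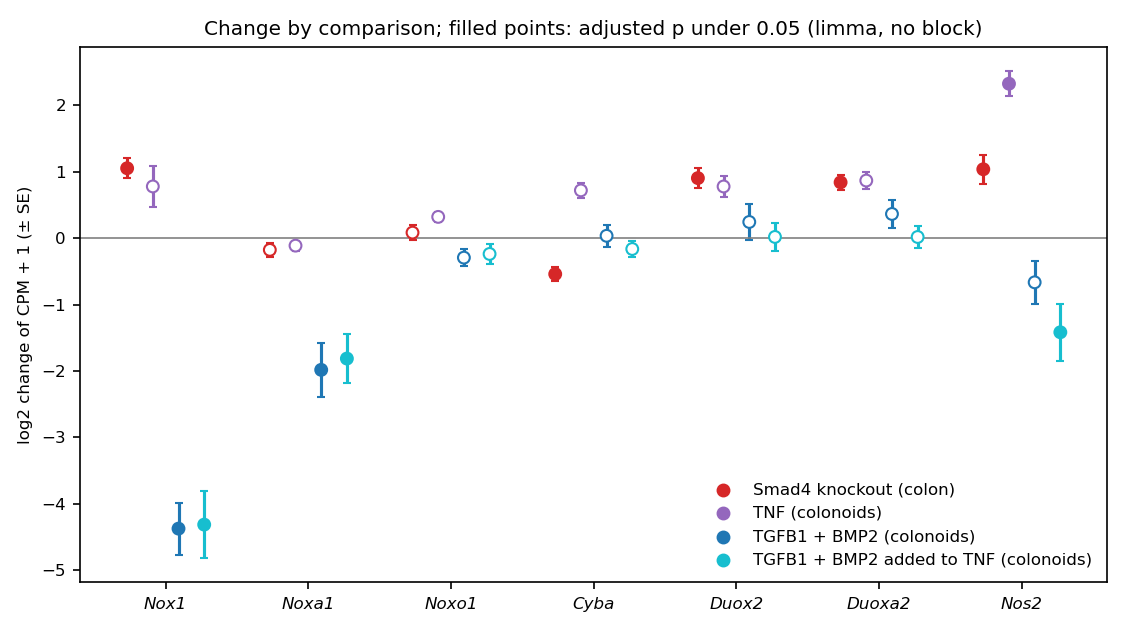
Log2 change of CPM + 1 (vertical axis, with SE) of the 7 genes in colon epithelium (n = 3 per group) and in 3 colonoid comparisons (n = 3 per group), where filled points passed an adjusted p of 0.05 by limma without the block. Nox1 lies at 1.05 in the knockout and at -4.37 and -4.31 in the colonoids given TGFB1 with BMP2, and Nos2 lies highest with TNF, at 2.32.

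Nox1 was 173, 324 and 151 CPM with vehicle and 5.55, 8.47 and 14.5 CPM with TGFB1 and BMP2, in L42, L43 and L46. The groups were more than a factor of 10 apart. Its log2 change of -4.37 (SE 0.39, adjusted p = 0.0011 by limma) left 3.22%, 2.61% and 9.63% of the vehicle level of each line. At the depth of these libraries, the treated values rest on 226, 442 and 783 reads. Cstf2, on the other strand, stood at 99.7 ± 6.40 and 63.4 ± 12.03 CPM.

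Noxa1 was 114, 102 and 102 CPM with vehicle and 20.1, 16.2 and 53.1 CPM with the 2 ligands. All treated libraries were below all controls, and L46 kept the most, 52.0% of its vehicle level against 17.7% and 15.9% in L42 and L43. It fell by 1.98 (SE 0.40, adjusted p = 0.00756 by limma). Entpd8, on the other strand, stood at 103 ± 17.0 and 57.6 ± 2.88 CPM.

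Noxo1 was 160, 155 and 161 CPM with vehicle and 117, 118 and 157 CPM with the 2 ligands, lower in L42 and L43 and near its vehicle level in L46. Its log2 change was -0.29 (SE 0.13, adjusted p = 0.0873 by limma), and without the treated L46 library it was -0.43 and was called (adjusted p = 0.00213 by limma). It was called lower also when libraries were scaled to the plain total (-0.57, adjusted p = 0.0176 by limma). Cyba was 121, 92.1 and 103 CPM against 101, 91.9 and 132 CPM, with L42 lower and L46 higher (log2 change 0.03, SE 0.16, adjusted p = 0.868 by limma). Thus the catalytic subunit and the activator fell by more than the organizer and the membrane partner did in each line, as values within the same libraries.

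Duox2 went in different directions by line: 49.8, 32.0 and 37.2 CPM with vehicle became 34.1, 66.3 and 43.9 CPM. L42 kept 68.5% of its level, L43 reached 207% and L46 118%, and the log2 change of 0.24 was not called (SE 0.27, adjusted p = 0.46 by limma) and turned to -0.03 when libraries were scaled to the plain total. Duoxa2 showed the same order of lines, with 10.9, 9.24 and 8.92 CPM against 10.2, 17.7 and 11.3 CPM (log2 change of 0.36 with SE 0.22 and, by limma, adjusted p = 0.187). Nos2 was 9.86, 11.7 and 8.32 CPM with vehicle and 3.19, 8.70 and 6.89 CPM with the 2 ligands. It was lower in each line, most in L42, with groups that overlapped (log2 change -0.67, SE 0.32, adjusted p = 0.115 by limma), and was called with the plain total (-0.91, adjusted p = 0.0452 by limma).

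**Figure D4:**
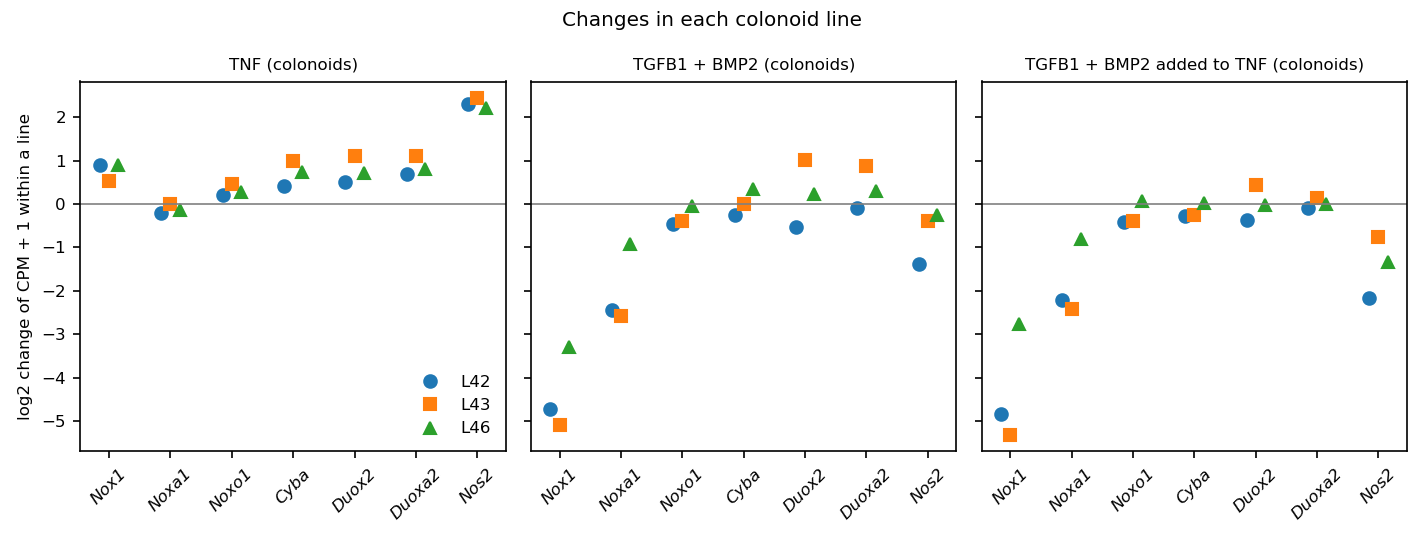
Log2 change of CPM + 1 of each gene within each colonoid line (1 library per line and condition), for TNF, for TGFB1 with BMP2, and for TGFB1 with BMP2 added to TNF. For Nox1 and Noxa1 with TGFB1 and BMP2, L46 (green) lies nearer to 0 than L42 and L43, and for Duox2 L43 (orange) lies highest.

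The smaller fall of Nox1 and Noxa1 in L46 stood beside a smaller change of other genes in that line. Over 2387 genes called with a log2 change of at least 1 in either direction, the median change in the called direction was 1.65 in L42, 1.85 in L43 and 1.03 in L46. When L46 was left out of both groups, Nox1 and Noxa1 were still called lower, and Noxo1 became called (-0.42, adjusted p = 0.00903 by limma).

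The pathway genes around the members were called in both directions with TGFB1 and BMP2, as were genes in general (56.7% of all genes, 3262 higher and 3334 lower). Of 8 genes of arginine and nitric oxide metabolism tested 3 rose and 3 fell. Arg1, which competes with Nos2 for arginine, went from 1.10 ± 0.408 to 126 ± 80.7 CPM, and Gch1, the first enzyme of tetrahydrobiopterin synthesis, from 24.9 ± 4.55 to 138 ± 35.4 CPM. Of 2 other oxidase subunits tested 1 rose, Rac1 (451 ± 33.1 to 754 ± 141 CPM). Of 15 genes of peroxide and superoxide removal 3 rose and 6 fell, with Prdx5 at 155 ± 4.66 and 579 ± 193 CPM and Prdx4 at 35.7 ± 4.70 and 7.64 ± 5.87. Of 8 Nrf2 and glutathione genes 4 rose, including the heme oxygenase Hmox1 (27.7 ± 8.49 to 76.1 ± 12.3 CPM), and 2 fell. Of 6 NADPH supply genes 2 rose and 1 fell, Idh2 (193 ± 14.98 to 80.5 ± 31.3 CPM). Of 12 inducers 7 rose and 0 fell, such as the NF-kB subunit Rela (55.1 ± 5.86 to 99.2 ± 6.63 CPM). The list medians lay between -0.19 for arginine and nitric oxide and 0.52 for the inducers, beside -0.02 over all genes.

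Epithelial markers moved with these changes. Their sum went from 10500 to 12710 CPM with vehicle to 27110 to 36190 CPM with TGFB1 and BMP2, where 9 of 12 rose and 1 fell. Krt20, a keratin of surface cells, went from 111 ± 40.9 to 1195 ± 805 CPM and Cdx1, an intestinal transcription factor, from 157 ± 21.9 to 57.1 ± 17.97. The part of this shift in the fall of Nox1 and Noxa1 was not tested.

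Added to TNF, TGFB1 and BMP2 again lowered Nox1 and Noxa1, and lowered Nos2 as well. Limma called 3 of the 7 genes, all lower, against 54.1% of all genes, and the same 3 with the line as block, against 60.9%. The TNF libraries are also those of the comparison of TNF with vehicle. The median log2 change was -0.24 over the 7 genes and -0.03 over all genes.

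Nox1 was 325, 470 and 280 CPM with TNF and 10.3, 10.8 and 40.003 CPM with all 3 ligands in L42, L43 and L46. It fell by 4.31 (SE 0.50, adjusted p = 0.00189 by limma), which left 3.18%, 2.30% and 14.3%. Noxa1 was 98.8, 102 and 92.9 CPM with TNF and 20.5, 18.1 and 52.8 CPM with all 3. It fell by 1.81 (SE 0.37, adjusted p = 0.0082 by limma), and L46 again kept the most. In the same libraries Cstf2 stood at 99.7 ± 13.4 and 68.4 ± 18.2 CPM, and Entpd8 at 102 ± 8.33 and 44.9 ± 8.83 CPM.

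Nos2 was 53.2, 67.0 and 41.8 CPM with TNF and 11.1, 39.2 and 16.0 CPM with all 3 ligands. Every value with all 3 ligands was below every value with TNF, and L43 kept the most, 58.5% against 20.9% in L42 and 38.3% in L46. It fell by 1.42 (SE 0.43, adjusted p = 0.0302 by limma, and 0.0157 with the line as block). Without the block the call was lost when the TNF library of L42, L43 or L46 or the library of L42 or L46 with all 3 ligands was left out (adjusted p between 0.0551 and 0.0942 by limma), and also when line L46 was left out of both groups (-1.46, adjusted p = 0.0857 by limma).

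The other 4 members did not pass the test, with values that differed by line. Noxo1 was 187, 214 and 195 CPM with TNF and 140, 164 and 206 CPM with all 3 (log2 change -0.24, adjusted p = 0.207 by limma), which was 75.1% and 76.6% of the TNF level in L42 and L43 and 105% in L46. It was called lower without the L46 library given all 3 (-0.39, adjusted p = 0.0162 by limma), without line L46 in both groups (-0.40, adjusted p = 0.0405) and with the plain total (-0.50, adjusted p = 0.0361). Cyba was 162, 184 and 172 CPM against 133, 156 and 176 CPM (log2 change of -0.16 and, by limma, adjusted p = 0.281), and with the plain total it was called lower (-0.42, adjusted p = 0.0316 by limma). Duox2 was 71.8, 69.4 and 61.7 CPM against 55.3, 95.3 and 60.5 CPM, again with L43 highest, and Duoxa2 was 18.3, 20.8 and 16.3 CPM against 17.1, 23.0 and 16.2 CPM. Both had a log2 change of 0.02 with adjusted p = 0.948 and 0.940 by limma, which became -0.24 and -0.23 when libraries were scaled to the plain total.

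The related lists under TNF held calls in both directions, beside 54.1% of all genes, 3061 higher and 3217 lower. In arginine and nitric oxide metabolism 3 of 7 rose and 3 fell, with Arg1 at 1.27 ± 0.551 and 108 ± 65.3 CPM and Gch1 at 28.4 ± 5.28 and 132 ± 24.2. In peroxide and superoxide removal 5 of 15 rose and 5 fell, in Nrf2 and glutathione 3 of 8 rose and 2 fell, and in NADPH supply 2 of 6 rose and 2 fell. Among the inducers 7 of 12 rose and 0 fell, with Rela at 65.7 ± 4.49 and 115 ± 14.2 CPM. Of 3 other oxidase subunits 1 rose, Rac1 (455 ± 5.07 to 720 ± 87.5 CPM), while Ncf4 stood at 15.8 ± 14.3 CPM with TNF and 3.58 ± 4.30 CPM with all 3. The epithelial markers summed to 11380 to 13550 CPM and 27520 to 34030 CPM, with 8 of 12 higher and 1 lower.

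Whether TNF acted differently in the presence of TGFB1 and BMP2 was asked of all 12 colonoid libraries, put on 1 scale. The interaction was called for 0% of genes by limma without the block and 0% with it, and so for 0 of the 7 members. Unadjusted p under 0.05 was found for 80 genes without the block and 317 with it. The interaction of Nos2 was -0.73 (SE 0.59, adjusted p = 1.00 by limma). On the joined scale Nos2 stood at 6.29 ± 2.83 CPM with TGFB1 and BMP2 and at 22.5 ± 15.3 CPM when TNF was added, a log2 change of 1.58 that was called with the line as block (adjusted p = 0.0257 by limma, 2.21% of genes called). Without the block it was not (adjusted p = 0.286 by limma, 0.184% of genes called, 0 of 7 members). Nox1 stood at 9.54 ± 4.52 and 20.6 ± 17.0 CPM in the same groups (log2 change 0.85, SE 0.50, adjusted p = 1.00 by limma).

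The order of the 4 colonoid groups, on the joined scale, differed between members. Nox1 rose from TGFB1 with BMP2 through all 3 ligands (ranges overlapped) to vehicle (no overlap) and TNF (overlap). Noxa1 had the 2 groups with TGFB1 and BMP2 lowest, at 29.9 ± 20.1 and 30.9 ± 19.3 CPM, apart from TNF at 96.8 ± 4.25 CPM and vehicle at 105 ± 7.18 CPM. Vehicle and TNF lay next to each other there (highest TNF library 100.5 CPM, lowest vehicle library 100.8) and overlapped in the deposited table. Nos2 was lowest with TGFB1 and BMP2, overlapped there with vehicle (9.86 ± 1.67 CPM), and was highest with TNF (53.5 ± 12.4 CPM), with no overlap between TNF and the group below it, all 3 ligands. For Cyba the groups with TNF (171 ± 11.02 and 157 ± 20.7 CPM) were separate from those without (104 ± 14.7 and 109 ± 20.2 CPM). For Noxo1, Duox2 and Duoxa2 every neighbour in the order overlapped.

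Over these 12 libraries, with the mean of each line removed, Duox2 and Duoxa2 correlated with Pearson's r = 0.95, and each was the gene most like the other among 11413 genes. The libraries share lines and treatments, so these r are descriptions. Nox1 and Noxa1 gave 0.96, whereas Cyba with Nox1 gave 0.25. The genes most like Nox1 were Phf7, Tekt5 and E2f2 (r 0.99 to 1.00), and those most like Noxa1 were Kifc1, Kif18b and Troap (r 1.00 each). Pglyrp1, Tnfaip2 and Ikbke were most like Noxo1 (0.97 to 0.98), Nfkbie, Pogk and Tnf most like Cyba (0.94 to 0.95), and Phtf1, Trpm6 and Guca2b most like Nos2 (0.95 to 0.96). After their partners, Tnfrsf1b and Lrrc47 were most like Duox2 (0.87 each), and Scly and Relb most like Duoxa2 (0.94 and 0.92).

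**Figure D5:**
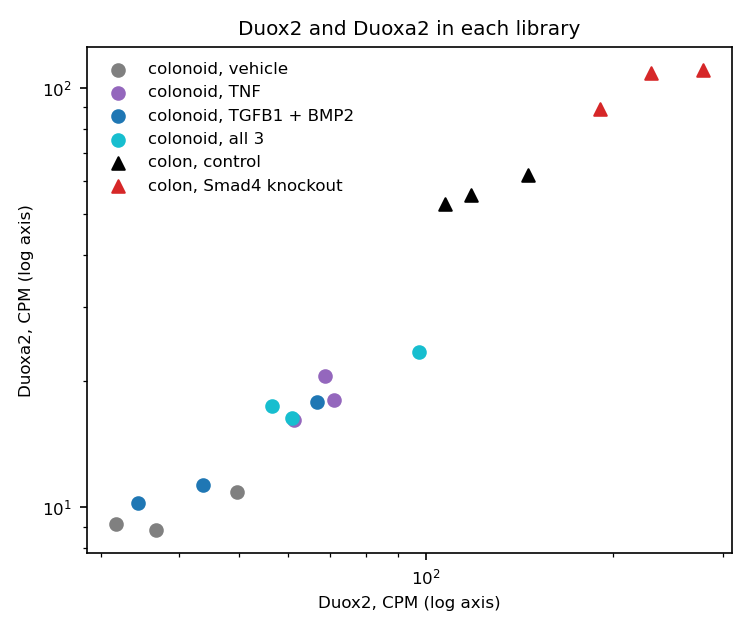
Duox2 (horizontal) and Duoxa2 (vertical) in CPM on log axes for 12 colonoid libraries (circles, joined scale) and 6 colon libraries (triangles, their own table). The 2 genes climb together, and the colon libraries hold 2.03 to 2.52 Duox2 reads per Duoxa2 read against 3.23 to 4.56 in the colonoids.

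The ratio of the pair differed between systems. Colonoid libraries held 3.23 to 4.56 Duox2 reads per Duoxa2 read, above the 2.03 to 2.52 of every colon library. Tissue and colonoids were read with different lengths and layouts and Duoxa2 shares exon bases with Duoxa1, so this difference was not tested.

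In the colonocytes neither of the listed members passed the test. These cultures listed 3 or 4 of 12 epithelial markers, without Epcam, Vil1 or Cdx2, summing to 27.3 to 49.9 CPM in every group, and 10 of 12 stromal markers summing to 7440 to 8321 CPM. The data go against the epithelial label in that respect. The labels do not say what separates replicates of a group, and p-values here measure only how far these cultures spread.

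Noxo1 was 1.75, 1.88 and 1.78 CPM untreated and 1.97, 1.49 and 1.65 CPM with TNF, values that rest on 39 to 77 reads. The groups overlapped (log2 change -0.06, adjusted p = 0.869 by limma). Cyba was 6.92, 6.28 and 4.21 CPM untreated and 8.43, 7.46 and 3.85 CPM with TNF, with library 3 lowest in both groups (log2 change 0.12, adjusted p = 0.839 by limma). So 0 of 2 members were called, against 6.28% of all genes, and 0 of 2 with the replicate number as block, against 20.3%. By limma without the block 2162 genes had an unadjusted p under 0.05.

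With TGFB1 and BMP2, Noxo1 was 1.49, 1.41 and 1.07 CPM beside 1.72, 1.84 and 1.75 CPM untreated in the same table. The groups did not overlap, and the change of -0.26 was not called (SE 0.14, adjusted p = 0.176 by limma). Added to TNF, the 2 ligands took it from 1.89, 1.43 and 1.58 CPM to 1.16, 1.18 and 1.04 CPM, again without overlap and not called (log2 change -0.31, SE 0.14, adjusted p = 0.108 by limma). Tbl3 stood at 29.9 ± 1.84 and 27.8 ± 0.752 CPM in the first of these comparisons. Cyba had log2 changes of -0.08 (adjusted p = 0.799 by limma) and 0.08 (adjusted p = 0.822 by limma), with library 3 lowest in every group. The share of all genes called was 30.2% for TGFB1 with BMP2 and 31.9% for their addition to TNF, with 0 of 2 members in each, and 4711 and 4845 genes had an unadjusted p under 0.05 by limma.

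On the joined scale of the 12 colonocyte libraries, the interaction called 0.0175% of genes and 0 of 2 members by limma, with 357 genes at an unadjusted p under 0.05. TNF under TGFB1 and BMP2 called 4.2% of genes and 0 of 2 members, with 1728 genes at an unadjusted p under 0.05. Cyba had a log2 change of 0.28 there (adjusted p = 0.674 by limma).

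Another oxidase was listed in these cells. Nox4, a hydrogen peroxide-forming oxidase that is active without cytosolic subunits, was 1.90 ± 0.405 CPM untreated and 3.73 ± 0.501 CPM with TGFB1 and BMP2, up by 0.71 in log2 (SE 0.14, adjusted p = 0.0018 by limma). It rose also when they were added to TNF, from 1.56 ± 0.424 to 3.26 ± 0.343 CPM (adjusted p = 0.00173 by limma). Nox4 was not listed for colon epithelium or colonoids. Nos2 was not listed, but 7 genes of arginine and nitric oxide metabolism were, and 2 of them were called with TNF. The arginine transporter Slc7a2 went from 12.6 ± 1.57 to 36.8 ± 3.604 CPM and Gch1 from 9.40 ± 1.19 to 24.2 ± 3.73. Whether they serve nitric oxide synthesis in these cells was not tested. Of 12 inducers tested with TNF 8 rose and 1 fell, with Relb at 15.6 ± 2.18 and 56.6 ± 7.87 CPM. Superoxide dismutase Sod2 (25.2 ± 2.20 to 40.1 ± 3.88 CPM) was the 1 call among 15 genes of peroxide and superoxide removal. With TNF 6.28% of all genes were called in colonocytes, 534 higher and 194 lower. The 1 call among 15 lies near that share, and the counts of these lists are a description.

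With TGFB1 and BMP2 alone, 3 of 8 Nrf2 and glutathione genes fell and 0 rose, among them Gclc, the catalytic subunit of glutathione precursor synthesis (104 ± 9.30 to 84.9 ± 8.64 CPM). Of 6 NADPH supply genes 1 rose, Me1 (134 ± 3.51 to 153 ± 3.19 CPM), and 1 fell, Idh1 (47.2 ± 5.88 to 38.05 ± 4.05). Of 11 inducers 3 rose and 1 fell, the lipopolysaccharide receptor Tlr4 (27.7 ± 2.11 to 15.6 ± 1.05 CPM). In the same comparison 30.2% of all genes were called, 1848 higher and 1665 lower, so the counts of these lists are a description.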

How the data were processed

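Per the series' text and the labels, mRNA libraries were made with a TruSeq Stranded kit and read as single ends (colon) or paired ends (colonocytes, colonoids). The submitters' processing notes name edgeR 3.4.2, HTSeq 0.5.4p5, TopHat2 2.1.0, mm10, SAMtools 1.3.1, bcl2fastq 2.16 and CASAVA. Each of 7 deposited tables holds 6 libraries as CPM on an effective library size, a depth-scaled signal made by the authors, with the authors' deposited log2 fold changes, p-values and false discovery rates. No source used here states how the listed genes were chosen. There were 0 other columns of values. Each value was a whole number of reads within 0.05 after division by the library's step, the smallest difference between its low values, which gave the depths and read numbers. The 12 libraries that stand in 2 tables had the same read number in both for 100% of shared genes. Taking the smallest value as the step, however, recovered whole reads in few libraries, so depths and read numbers rest on the first way of reading the step.

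Deposited CPM were analysed as log2(CPM + 1) for genes with mean CPM of at least 1 with limma 3.58.1 (R 4.3.3, empirical Bayes with trend, two-sided, Benjamini-Hochberg over all genes), within each table and without a replicate block. The interaction, TNF under TGFB1 with BMP2, and likeness between genes used genes listed in all 3 tables of a system, put on 1 scale by a trimmed mean of log ratios (30% and 5% trimmed). That scaling replaced the planned one on recovered reads. Planned count tests were not run, since the deposited values are scaled and the recovered reads hold only under that step. Levels set across tables were normalised separately. Scripts used Python 3.11.15, numpy 2.4.6, pandas 2.3.3 and matplotlib 3.10.9, and the fits were tested on simulated data.

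The same colonoid lines stand in every group, which pairs them, and deviations of same-line libraries from their group means correlated with r of 0.283 to 0.887. Same-numbered colonocyte libraries gave 0.163 to 0.522 in the comparisons of TNF and of addition to TNF. For TGFB1 with BMP2 against untreated they gave 0.0482 to 0.251. Alternatives were a pseudocount of 0.5, no filter on low values, plain-total scaling, the replicate block, all 12 libraries in 1 fit, and leaving out libraries. Members and gene lists were chosen with earlier results of these data known. Besides the members and Smad4, the text names at most 4 called genes of a list and comparison, taken from those with the largest absolute log2 change. It also names the 3 genes most like each member and, called or not, genes that share exon bases with a member. Ncf4 was named after its values were seen, and some list genes are named only as not listed. A gene of the list of inducers is counted there but not reported by name here.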

Additional observations from a re-analysis of the deposited data

How the results depend on the processing

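No member's log2 change that was called turned sign under any alternative run. With the line as replicate block the number of members called rose from 1 to 6 for TNF in colonoids and from 0 to 1 for TNF under TGFB1 and BMP2. The other alternatives were run without the block. There the number for TNF in colonoids was 0 with all 12 libraries in 1 fit and 0 without line L46 (chosen after seeing the data). It was 0 to 1 with 1 library left out. Genes called with the block numbered 718 against 16 for TNF in colonoids, 252 against 21 for TNF under the 2 ligands, 2356 against 728 for TNF in colonocytes and 1000 against 480 for TNF under the 2 ligands there. In colonocytes and colon the block changed no member's call, and the colon numbers do not pair the samples (r of 0.0658, 0.123 and -0.00611). Scaling to the plain total moved the median of all genes to -0.28 for TGFB1 with BMP2 in colonoids and to -0.27 when added to TNF. There 4 members (adding Noxo1 at -0.57 and Nos2 at -0.91) and 5 members (adding Noxo1 at -0.50 and Cyba at -0.42) were called lower, and the higher share of all calls went from 49.5% to 28.4% and from 48.8% to 28.1%. In colonocytes it went from 52.6% to 29.8%, from 51.2% to 29.2% (addition to TNF), from 73.4% to 59.9% (TNF) and from 75.4% to 62.2% (TNF under the 2 ligands).

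Uncalled log2 changes turned sign as follows, and the cause was not tested. Under the plain total Cyba was -0.24 and Duox2 -0.030 for TGFB1 with BMP2 in colonoids, and Duox2 -0.24 and Duoxa2 -0.23 when added to TNF. Without line L46 Cyba was -0.13 for TGFB1 with BMP2 and the interaction of Nox1 -0.14. Without colonocyte number 3 (chosen after seeing the data) Cyba was -0.037 for the addition to TNF and -0.026 for the interaction. With 1 library left out, Cyba in colonocytes ranged from -0.064 to 0.42 for TNF, -0.26 to 0.16 for TGFB1 with BMP2, -0.22 to 0.26 for the addition to TNF and -0.14 to 0.34 for the interaction, and the interaction of Noxo1 from -0.14 to 0.014. In colonoids TGFB1 with BMP2 gave -0.11 to 0.14 for Cyba and -0.011 to 0.46 for Duox2, and its addition to TNF -0.22 to 0.17 for Duox2 and -0.13 to 0.11 for Duoxa2. The colonoid interaction ranged from -0.52 to 0.40 for Nox1, -0.28 to 0.68 for Noxa1, -0.45 to 0.048 for Duox2 and -0.066 to 0.21 for Noxo1, and TNF under the 2 ligands from -0.39 to 0.57 for Noxa1. Genes called with 1 library left out numbered 2708 to 4915 (4611 with all) in colon, 400 to 1217 for TNF in colonocytes, 1 to 8 for TNF in colonoids, 4177 to 7558 (6278 with all) for the addition to TNF in colonoids, 282 to 590 and 6 to 32 for TNF under the 2 ligands in colonocytes and colonoids, and 0 to 10 for the colonocyte interaction. That interaction called 2 genes, 30 with the block, 18 without number 3 and 0 with a pseudocount of 0.5. Without number 3, TNF in colonocytes called 2327 and TNF under the 2 ligands 849. Noxo1 in colonocytes rests on as few as 24 reads a library.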
